A study of Mus musculus with 6 samples.

Results

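The 10 genes described here encode the MHC class I antigen presentation machinery and the immunoproteasome in sorted blood neutrophils: the heavy chains *H2-K1* and *H2-D1*, the light chain *B2m*, the peptide transporter and loading genes *Tap1*, *Tap2* and *Tapbp*, the catalytic subunits *Psmb8*, *Psmb9* and *Psmb10*, and the transactivator *Nlrc5*. They were chosen by name, and all 10 were found once each among the 29097 genes of the expression table. All 10 also passed the filter on low values, a mean FPKM (read counts scaled by gene length and library size) of at least 1 over the libraries, as did 10440 genes in all.

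Neutrophils were sorted from peripheral blood (PB) as CD45+CD11b+Ly6G+ cells of wild type male C57BL/6 mice, 8 weeks old. One group had silk ligatures tied around the second molars for 14 d, the ligature-induced periodontitis (LIP) model, which the labels call Lig, and the other was left untreated for 14 d (Ctrl). Each group had 3 libraries, each made by Smart-seq2 from the pooled neutrophils of 5 mice, so that a library stands for a pool and not for one animal. The protocol reverse-transcribes whole mRNAs and amplifies the cDNA by PCR, without molecular identifiers. Total counts lay between 52186555 and 57262379 reads per library.

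MHC class I molecules display peptides of intracellular proteins on the surface of nearly all nucleated cells, where CD8 T cells and NK cells read them. A heavy chain pairs with beta-2 microglobulin and is loaded in the endoplasmic reticulum with peptides that the TAP transporter brings in from the cytosol, with tapasin editing the fit. The peptides are cut by the proteasome, whose 3 constitutive catalytic subunits are exchanged for *Psmb8*, *Psmb9* and *Psmb10* under interferon to form the immunoproteasome. NLRC5 is the transactivator of most of these genes, and interferons raise them in many cell types.

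The short stretches printed here come from in front of the RefSeq start sites of *H2-K1*, *H2-D1* and *B2m* (build GRCm38.p6), the genes that make up the class I molecule itself. They are shown because the heavy chains moved apart between the groups and a stretch of their promoters can be compared base by base. Whether promoter sequence bears on the RNA levels was not tested. Capitals mark matches to the NF-kappaB consensus (in the first stretch of each heavy chain and as the second capital block of *B2m*), the core of the interferon-stimulated response element (GAAA, any 2 bases, then GAAA, the first capital block of *B2m*), and TGACGC and ATTGG, forms of the X2 and Y boxes of class I promoters (second stretch).
H2-K1, chr17:34000429-34000458, minus strand: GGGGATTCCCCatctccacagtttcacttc
H2-D1, chr17:35262923-35262952, plus strand: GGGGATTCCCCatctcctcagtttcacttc
H2-K1, chr17:34000359-34000388, minus strand: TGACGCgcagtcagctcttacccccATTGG
H2-D1, chr17:35262993-35263022, plus strand: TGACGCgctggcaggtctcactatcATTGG
B2m, chr2:122147548-122147577, plus strand: GAAACTGAAAatgGGAAAGTCCCtttgtaa
From the NF-kappaB match to the ATTGG, a stretch of 100 bases in both genes, *H2-K1* and *H2-D1* were identical at 89 bases, with 29 of 30 identical in the first printed stretch and 23 of 30 in the second. The RefSeq set held 9 promoters of 8 of the 10 genes, with overlapping windows for *H2-K1*. Each ran from 250 bases before to 50 after a start, and both strands were searched. The NF-kappaB consensus matched in 4 of the 9 promoters (3 genes) and in 4.51% of all 32851 promoters. The response element core matched in 1 of the 9 and in 3.44% of all. TGACGC matched in 3 of the 9 (2 genes) and in 7.40% of all, and ATTGG in 7 of the 9 (6 genes) and in 37.4%. The interferon-gamma-activated sequence TTCNNNGAA matched in 1 of the 9, that of *Psmb8*, and in 8.30% of all promoters. These matches describe letters in a window and were not tested as binding sites. Only these exact patterns were searched. A gene without a match, the heavy chains included, may still hold a response element with other letters.

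Read as one group, the 10 genes moved in no common direction. With TMM normalization and edgeR's quasi-likelihood test, 6 of the 10 passed a Benjamini-Hochberg adjusted p of 0.05, beside 53.6% of all genes tested. In LIP 4 were higher, beside 26.5%, and 2 were lower, beside 27.2%. *H2-D1*, *B2m*, *Tapbp* and *Psmb9* rose, *H2-K1* and *Psmb10* fell, and *Tap1*, *Tap2*, *Psmb8* and *Nlrc5* did not pass. These directions are those with TMM and in part flip with other scalings, given further on. The count of lower genes was 1 without the second Ctrl library, the third Ctrl library or the second LIP library, and 0 without the third LIP library, where 3 were higher. The LIP and Ctrl libraries did not overlap in the TMM-normalized counts (CPM) of 6 of the 10 genes, beside 63.4% of all genes tested. With 10 genes, these shares do not set the group apart from all genes tested. The median log2 fold change of the 10 was 0.10, and that of all genes tested was -0.09.

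**Figure D1:**
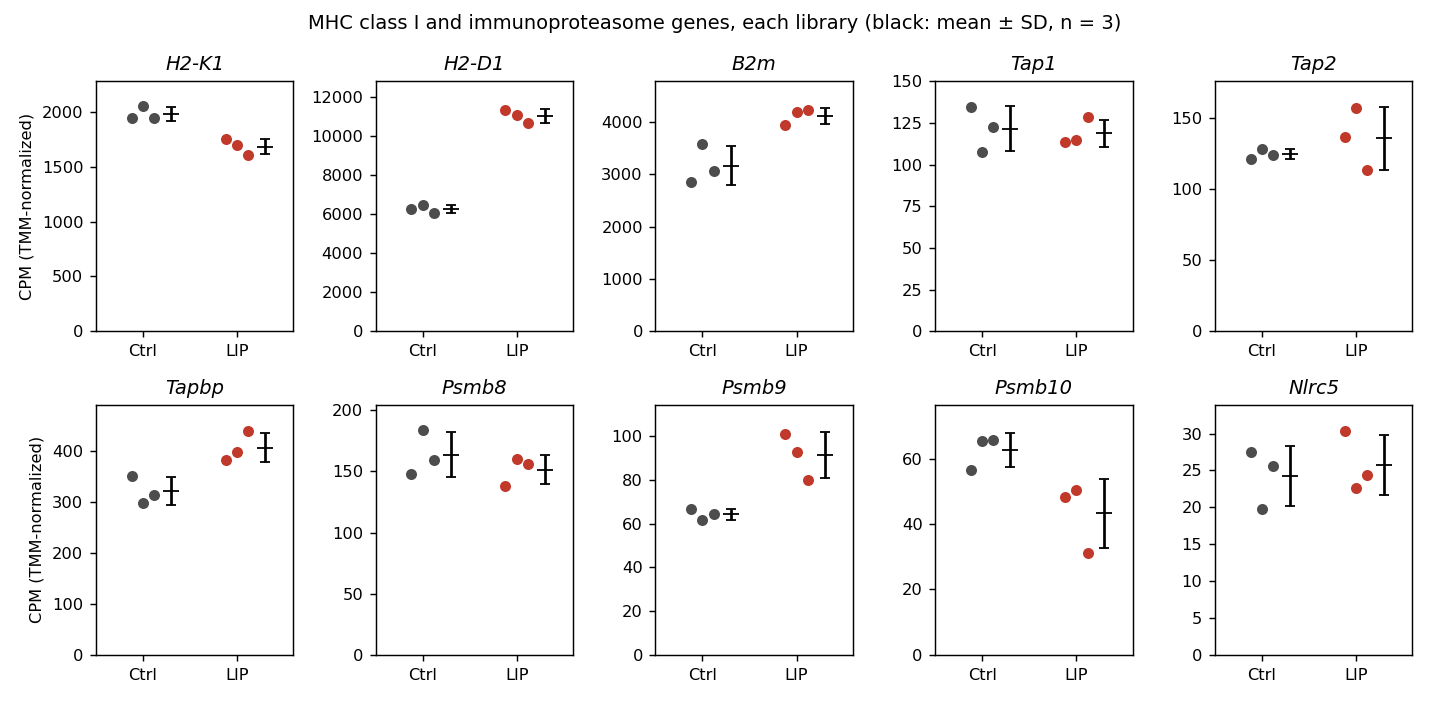
TMM-normalized CPM (y axis, from 0) of each of the 10 genes in the 3 Ctrl libraries (grey) and the 3 LIP libraries (red), with the mean and SD of each group in black. The groups lie apart for *H2-K1*, *H2-D1*, *B2m*, *Tapbp*, *Psmb9* and *Psmb10*, and overlap for the other 4 genes.

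The levels of cell type markers in the sorted samples differed between the groups, and the scaling of the libraries sets the direction of most of these genes. In Ctrl, the summed FPKM of 13 B cell markers was 2441 to 2720, and in LIP it was 302 to 343. The 16 T cell markers summed to 386.5 to 442.5 and to 71.5 to 85.0, the 8 MHC class II genes to 9372 to 10300 and to 1623 to 1657, and the 12 erythroid markers to 180800 to 187100 and to 19510 to 20220. Every tested marker on these 4 lists was lower in LIP (13 of 13, 15 of 15, 8 of 8 and 10 of 10), and the most abundant were *Cd79a*, *Cd2*, *Cd74* and *Hba-a1*, with log2 fold changes of -2.63, -1.86, -2.27 and -2.80. The 21 mature neutrophil markers summed to 17460 to 20920 in Ctrl and to 56630 to 61760 in LIP, with 20 of 21 higher, among them *S100a9* by a log2 fold change of 2.03. The 8 platelet markers were all higher (summed FPKM 844 to 1078 and 1777 to 2081, *Ppbp* most abundant with 1.23), as were 8 of 9 tested monocyte and dendritic cell markers (257 to 268 and 401 to 422, *Fcgr4* with 1.48). NK cell markers summed to 243.5 to 291.6 and to 248.4 to 271.6, with 4 of 8 higher and *Gzma* at 0.20. Defining markers of no list were at 0 throughout a group, except 1 of the 12 erythroid genes, which had no read in LIP. Lymphocytes carry abundant class I transcripts, and the part of these other cells in the values of the 10 genes was not tested. In bulk samples, fewer cells of a type and less RNA per cell cannot be told apart.

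**Figure D2:**
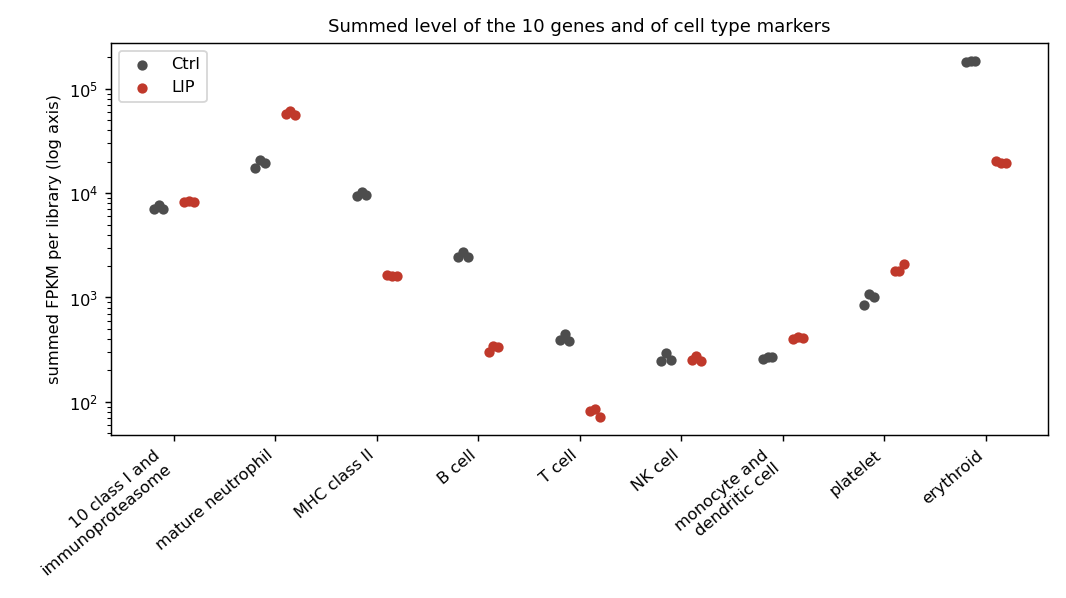
Summed FPKM per library (log axis) of the 10 class I and immunoproteasome genes and of the marker lists, with Ctrl in grey and LIP in red. The summed level of the 10 genes was 6998 to 7742 in Ctrl and 8164 to 8387 in LIP. *B2m*, *H2-D1* and *H2-K1* made up 96.2% to 97.3% of this sum. Their means in Ctrl and LIP were 3792 and 3996, 2506 and 3566, and 696 and 478 FPKM, so the sum does not describe the other genes. B cell, T cell, MHC class II and erythroid markers were lower and mature neutrophil markers higher in every LIP library.

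With library totals in place of TMM, 1 of the 10 genes was higher and 4 were lower, beside 18.4% and 39.7% of all genes (58.1% in either direction), and the median of all genes tested moved to -0.42. In limma on log2(FPKM + 1), 1 was higher and 3 were lower, beside 19.3% and 40.7% of all genes (60% in either direction). Under scaling on the mature neutrophil markers, none was higher and all 10 were lower, beside 0.546% and 87.9% of all genes (88.4% in either direction), around an all-gene median of -1.90. *H2-D1*, *B2m*, *Tapbp* and *Psmb9* lay above the all-gene median under TMM, library totals and neutrophil scaling, and *H2-K1* and *Psmb10* below it. *Tap1*, *Tap2* and *Nlrc5* also lay above it and *Psmb8* below it under each. A change of scaling moves every gene and the median by nearly the same amount. These positions could therefore hardly differ between scalings and are no separate support for the directions. Fold changes given for single genes below are those with TMM, and the ratios within a library do not depend on the scaling.

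**Figure D3:**
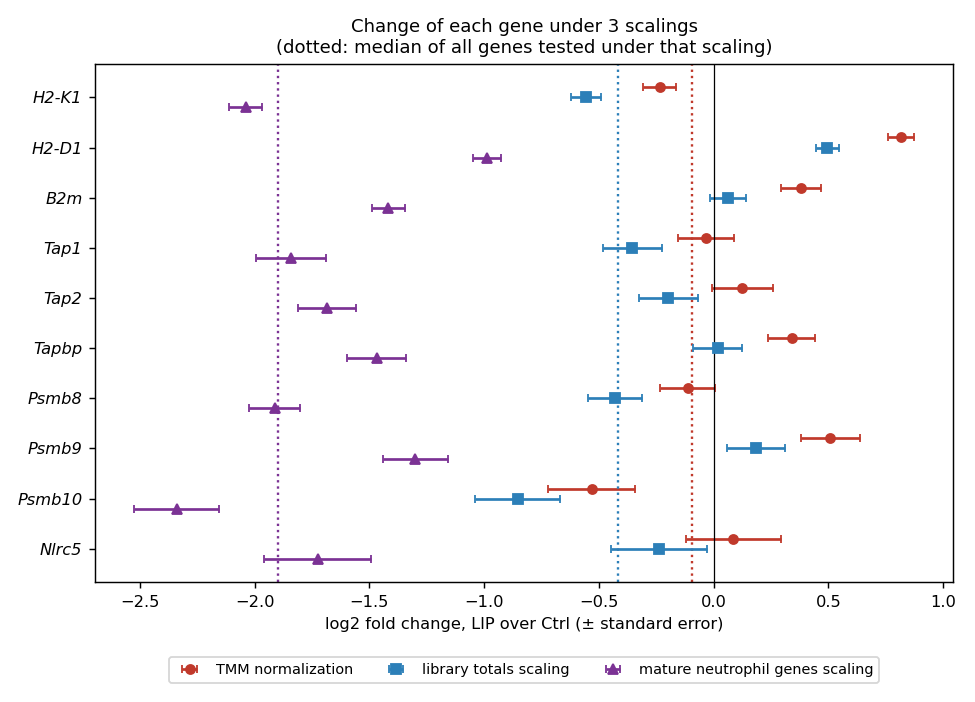
Log2 fold change of each gene (LIP over Ctrl, bars show the standard error of the edgeR fit) with TMM normalization (red circles), library totals (blue squares) and scaling on mature neutrophil markers (purple triangles). Dotted lines show the median of all genes tested under each scaling, at -0.09, -0.42 and -1.90. *H2-D1* lies furthest above all 3 of them among the 10 genes. A change of scaling moves the genes and the median by nearly the same amount.

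*H2-D1* (ENSMUSG00000073411, chromosome 17 from 35262730 to 35267499, plus strand) encodes a classical heavy chain. It stood at 6266, 6482 and 6057 CPM in the Ctrl libraries and at 11358, 11089 and 10668 CPM in the LIP libraries. All LIP libraries lay above all Ctrl libraries, by more than the spread within either group. The log2 fold change was 0.82 (standard error, SE, 0.0576, adjusted p = 1.51e-06 in edgeR), a 1.76-fold rise. It stayed under an adjusted p of 0.05 with each library left out, with library totals, in limma and in DESeq2, while scaling on neutrophil markers turned its log2 fold change to -0.99.

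*H2-K1* (ENSMUSG00000061232, chromosome 17 from 33996017 to 34000347, minus strand) encodes the other classical heavy chain of C57BL/6 mice. Its values were 1951, 2054 and 1946 CPM in Ctrl and 1751, 1696 and 1612 CPM in LIP. The LIP libraries lay below the Ctrl libraries, though by a small margin, and the log2 fold change was -0.23 (SE 0.0718, adjusted p = 0.0186 in edgeR). The call was lost without the second LIP library (adjusted p = 0.0597), without the third (0.0810) and in DESeq2 (0.0686), with log2 fold changes of -0.24, -0.20 and -0.20. With library totals the change was -0.56 and passed.

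Within each library, the ratio of *H2-K1* to *H2-D1* separated the groups with little spread. By FPKM it was 0.273, 0.278 and 0.282 in Ctrl and 0.135, 0.134 and 0.133 in LIP. On the log2 scale the Ctrl mean was -1.85 ± 0.0227 and the LIP mean -2.90 ± 0.0149 (SD over 3 libraries), which differ by -1.05, so that *H2-K1* stood 2.07-fold lower against *H2-D1* in LIP (two-sided exact permutation test over 3 libraries against 3, p = 0.1, the smallest that this design allows, adjusted p = 0.12 over the 6 ratios tested). *H2-K1* made up 21.46% to 21.99% of the summed FPKM of both heavy chains in Ctrl and 11.71% to 11.92% in LIP. These genes are paralogs, and reads in shared stretches can be divided between them. Of the 150-base words in annotated transcripts, as long as one read, none of *H2-K1* and 1.35% of *H2-D1* occur in transcripts of another gene, and of the 50-base words 9.63% and 12.8% do. How the counting treated reads that match several genes is not given in the sources used here.

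*B2m* (ENSMUSG00000060802, chromosome 2 from 122147686 to 122153083, plus strand) encodes beta-2 microglobulin, the light chain common to all class I molecules. The Ctrl libraries stood at 2858, 3580 and 3062 CPM and the LIP libraries at 3949, 4198 and 4224 CPM. The groups did not overlap, with a log2 fold change of 0.38 (SE 0.0870, adjusted p = 0.00406 in edgeR). With library totals the change was 0.06 and did not pass (adjusted p = 0.523), and by FPKM the groups overlapped.

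Against *B2m*, the heavy chains moved apart. The FPKM ratio of *H2-D1* to *B2m* was 0.731, 0.604 and 0.660 in Ctrl and 0.959, 0.881 and 0.842 in LIP, a difference of 0.43 in mean log2 ratio. That of *H2-K1* to *B2m* was 0.200, 0.168 and 0.186 in Ctrl and 0.130, 0.118 and 0.112 in LIP, a difference of -0.62. Neither ratio overlapped between the groups (two-sided exact permutation test, 3 libraries against 3, p = 0.1 each, adjusted p = 0.12 over the 6 ratios). Per summed heavy chain FPKM, *B2m* stood at 1.074 to 1.296 in Ctrl and at 0.918 to 1.048 in LIP.

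**Figure D4:**
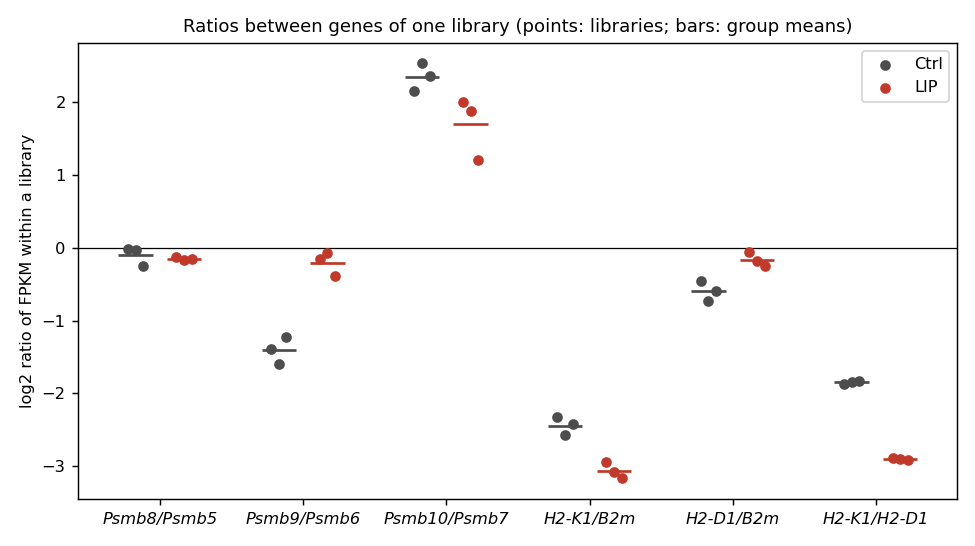
Log2 ratio of FPKM between pairs of genes within a library, with Ctrl libraries in grey, LIP libraries in red and bars at the group means. The *H2-K1*/*H2-D1* ratio falls from a mean of -1.85 to -2.90 with points almost on top of each other, *Psmb9*/*Psmb6* climbs from -1.41 to -0.21, and *Psmb8*/*Psmb5* overlaps between the groups.

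The other class I heavy chains and relatives were split in the same way. Of 21 listed, 18 were in the table and 14 were tested. In LIP 6 of these rose and 5 fell, beside 26.5% and 27.2% of all genes tested, around a median of 0.01 on the log2 scale. *H2-Q10*, which in mice encodes a secreted class I molecule, stood at 269, 283 and 279 CPM in Ctrl and at 845, 894 and 845 CPM in LIP, a log2 fold change of 1.64 (SE 0.0847, adjusted p = 2.58e-07 in edgeR). *H2-T24* and *H2-Q1*, both nonclassical genes, were higher by log2 fold changes of 1.24 and 0.85.

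*H2-Q6* and *H2-Q7*, which encode the Qa-2 antigen, fell. *H2-Q6* went from 272, 287 and 276 CPM to 105, 107 and 112 CPM and *H2-Q7* from 232, 236 and 230 CPM to 89.4, 99.3 and 108 CPM, with log2 fold changes of -1.37 and -1.23 (adjusted p = 1.75e-06 and 7.37e-06 in edgeR). *H2-M3*, which presents formylated peptides, went from 37.9, 49.0 and 38.2 CPM to 15.8, 16.8 and 12.4 CPM (log2 fold change -1.47, adjusted p = 0.000133 in edgeR). The *H2-Q* genes are close copies. Of the 50-base words, 35.0% of *H2-Q6*, 26.4% of *H2-Q7* and 19.1% of *H2-Q10* occur in transcripts of other genes, for *H2-Q10* mostly in *H2-Q7* and *H2-K1*. Of the 150-base words, 5.99%, 5.90% and 3.43% do. Where reads fell in these stretches, the division between the genes is uncertain. Named after their values were seen, *H2-T23*, which encodes the Qa-1 antigen, rose by a log2 fold change of 0.63, and *Cd1d1*, which presents lipids to NKT cells, changed by -1.74, and the nonclassical *H2-T10* by -1.73.

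**Figure D5:**
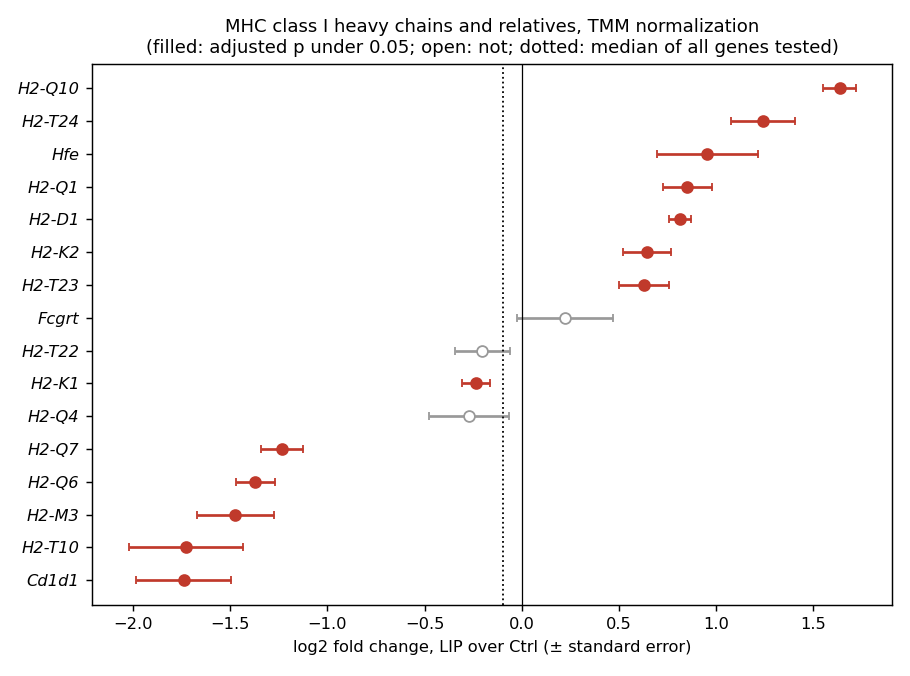
Log2 fold change (LIP over Ctrl, TMM normalization, bars show the standard error) of *H2-K1*, *H2-D1* and the 14 other class I heavy chains and relatives tested, ordered by value. Filled red points passed an adjusted p of 0.05 and open grey points did not, and the genes run from -1.74 for *Cd1d1* to 1.64 for *H2-Q10* on both sides of the all-gene median (dotted).

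Of the peptide loading genes, *Tapbp* (ENSMUSG00000024308, chromosome 17 from 33915899 to 33926197), which encodes tapasin, rose. Its values were 351, 298 and 313 CPM in Ctrl and 382, 397 and 438 CPM in LIP. The groups did not overlap, and the log2 fold change was 0.34 (SE 0.103, adjusted p = 0.0177 in edgeR). The call was lost without the third Ctrl library (0.32, adjusted p = 0.0662) and without the third LIP library (0.28, adjusted p = 0.0830), and with library totals the change was 0.02 (adjusted p = 0.893). *Tapbp* overlaps *Zbtb22* on the same strand over 3422 bases, and that gene had a mean FPKM of 3.94.

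*Tap1* (ENSMUSG00000037321, chromosome 17 from 34187553 to 34197225) and *Tap2* (ENSMUSG00000024339, chromosome 17 from 34203527 to 34216321) encode the subunits of the TAP transporter. *Tap1* stood at 135, 107 and 122 CPM in Ctrl and at 113, 114 and 128 CPM in LIP, and the groups overlapped (log2 fold change -0.03, SE 0.123, adjusted p = 0.834 in edgeR). *Tap2* stood at 122, 128 and 124 CPM in Ctrl and at 137, 158 and 114 CPM in LIP, with LIP libraries on both sides of the Ctrl values (log2 fold change 0.12, SE 0.133, adjusted p = 0.449 in edgeR). With library totals *Tap1* changed by -0.35 and passed (adjusted p = 0.0362).

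Among 20 cofactors of peptide supply and loading, 18 were tested, and 3 rose and 4 fell, beside 26.5% and 27.2% of all genes tested, around a median of -0.22. The endoplasmic reticulum chaperone *Hspa5* rose by 0.67 and *Derl1*, a component of the retrotranslocation machinery, by 0.69 on the log2 scale (adjusted p = 0.000104 and 0.000314 in edgeR). The members of the peptide-loading complex *Calr* and *Pdia3* fell, with log2 fold changes of -0.44 and -0.27 (adjusted p = 0.00964 and 0.0475), as did the proteasome activator *Psme3* with -0.72 (adjusted p = 0.000479). *Psme1* and *Psme2*, the interferon-inducible activator subunits, had values of -0.14 and -0.17 and did not pass (adjusted p = 0.330 and 0.393). The trimming peptidase *Erap1* ran from 28.4 to 44.3 CPM in Ctrl and from 9.19 to 35.0 CPM in LIP (adjusted p = 0.0983). The peptidases *Lnpep*, which rose by 0.70, and *Blmh*, with -0.69, complete the counts (adjusted p = 0.00706 and 0.0109). These last 5 genes are outside the naming rule and were named after their values were seen.

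The immunoproteasome subunits differed from each other. *Psmb9* (ENSMUSG00000096727, chromosome 17 from 34181987 to 34187764), the caspase-like position of the inducible core, stood at 66.7, 61.5 and 64.5 CPM in Ctrl and at 101, 93.0 and 80.0 CPM in LIP. All LIP libraries lay above Ctrl, with a log2 fold change of 0.51 (SE 0.128, adjusted p = 0.00705 in edgeR). With library totals it was 0.19 and did not pass (adjusted p = 0.228). *Psmb9* and *Tap1* are transcribed away from each other, with 225 bases between their RefSeq starts, and overlap by 212 bases in the gene models of the table, where reads could be divided.

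*Psmb10* (ENSMUSG00000031897, chromosome 8 from 105935735 to 105938104), the inducible trypsin-like subunit, stood at 56.6, 65.3 and 65.6 CPM in Ctrl and at 48.3, 50.4 and 31.0 CPM in LIP. The third LIP library was the lowest by a wide margin, and the log2 fold change was -0.53 (SE 0.188, adjusted p = 0.0350 in edgeR). Without that library the change was -0.34 and did not pass (adjusted p = 0.101), nor did it pass without the second Ctrl library (-0.48, adjusted p = 0.0941) or the third (-0.50, adjusted p = 0.103). *Psmb8* (ENSMUSG00000024338, chromosome 17 from 34197721 to 34201454), the inducible chymotrypsin-like subunit, stood at 148, 184 and 159 CPM in Ctrl and at 138, 160 and 156 CPM in LIP. The groups overlapped, with a log2 fold change of -0.11 (SE 0.120, adjusted p = 0.448 in edgeR), while with library totals it changed by -0.43 and passed (adjusted p = 0.0102).

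Each inducible subunit was set against the constitutive subunit whose place it takes. By FPKM, *Psmb9* against *Psmb6* was 0.380, 0.330 and 0.428 in Ctrl and 0.895, 0.948 and 0.765 in LIP, a 2.29-fold higher ratio without overlap (two-sided exact permutation test, 3 libraries against 3, p = 0.1, adjusted p = 0.12 over the 6 ratios). *Psmb10* against *Psmb7* was 4.42, 5.77 and 5.12 in Ctrl and 3.99, 3.68 and 2.30 in LIP, a difference of -0.65 in mean log2 ratio, also without overlap (exact permutation p = 0.1, adjusted p = 0.12). *Psmb8* against *Psmb5* was 0.992, 0.982 and 0.838 in Ctrl and 0.913, 0.893 and 0.901 in LIP, with overlap (exact permutation p = 0.4, adjusted p = 0.4).

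With TMM, both genes of the *Psmb9* ratio moved. By FPKM, from which the ratio was taken, *Psmb9* had means of 18.1 in Ctrl and 20.8 in LIP, and the groups overlapped. Those of *Psmb6* were 48.1 and 23.9 FPKM, without overlap. *Psmb6* fell from 89.8, 95.2 and 77.1 CPM to 57.8, 50.2 and 53.5 CPM (log2 fold change -0.70, SE 0.132, adjusted p = 0.00126 in edgeR). *Psmb5* (-0.06) and *Psmb7* (0.09) did not pass. Of the 11 subunits of the 20S core that both forms of the proteasome contain, 4 were lower and none higher, beside 27.2% and 26.5% of all genes tested, around a median of -0.33. *Psma5*, *Psmb1* and *Psma3* changed by -0.69, -0.64 and -0.41 (adjusted p = 0.0242, 0.0164 and 0.0336). The fourth, *Psma2*, named to complete the count, changed by -0.33 (adjusted p = 0.0479). This count fell to 0 without the second Ctrl library, to 1 without the first LIP library and to 2 without the third LIP library.

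*Nlrc5* (ENSMUSG00000074151, chromosome 8 from 94434356 to 94527272), the class I transactivator, was the least abundant of the 10 genes. It stood at 27.5, 19.7 and 25.6 CPM in Ctrl and at 30.3, 22.6 and 24.3 CPM in LIP, from 1149 to 1657 reads per library. The groups overlapped, with a log2 fold change of 0.08 (SE 0.206, adjusted p = 0.746 in edgeR).

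Of 28 listed genes that feed into class I transcription, 27 were tested, and 11 rose and 4 fell, beside 26.5% and 27.2% of all genes tested, around a median of 0.36. With library totals 6 were higher and 5 lower, beside 18.4% and 39.7%. *Irf1*, an interferon-induced activator of class I promoters, stood at 130, 143 and 149 CPM in Ctrl and at 285, 345 and 299 CPM in LIP (log2 fold change 1.14, SE 0.113, adjusted p = 1.54e-05 in edgeR). *Irf9*, an interferon-responsive transcription factor, and *Ifngr2*, a chain of the interferon-gamma receptor, rose by 1.11 and 1.09.

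Of the genes on this list that fell, *Rfx5*, a DNA-binding component of the complex on the X box, stood at 10.6, 8.85 and 19.1 CPM in Ctrl and at 3.10, 4.59 and 1.23 CPM in LIP (log2 fold change -2.11, SE 0.491, adjusted p = 0.00444 in edgeR). *Irf8*, which B cells and monocytes express, fell by 1.15 on the log2 scale, and *Socs1*, an inhibitor of interferon signalling, by 0.55. The fourth gene, *Ciita*, the class II transactivator, went from 159, 158 and 154 CPM to 42.9, 32.4 and 25.9 CPM (log2 fold change -2.22), and it was named after its values were seen because it completes this count. The MHC class II and B cell markers fell by similar or larger amounts in these libraries, with medians of -2.30 and -2.60, while that of the monocyte and dendritic cell markers was 1.14. Their part in these values was not tested.

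Compared per length, the order of the levels within a group was led by *B2m* at 3792 ± 387 FPKM in Ctrl and 3996 ± 167 in LIP (SD over 3 libraries). *H2-D1* followed at 2506 ± 78.0 and 3566 ± 98.8 FPKM, *H2-K1* at 696 ± 14.5 and 478 ± 18.1, *Tapbp* at 91.2 ± 9.23 and 93.2 ± 6.96, and *Psmb8* at 49.9 ± 4.76 and 37.3 ± 3.04. The light chain and both heavy chains together made up 96.2% to 97.3% of the summed FPKM of the 10 genes. Below *Psmb8*, the Ctrl order was *Psmb10* (37.8 FPKM), *Tap2* (34.0), *Tap1* (22.9), *Psmb9* (18.1) and *Nlrc5* (2.95), and no pair of neighbours overlapped among the Ctrl libraries. In LIP the order was *Tap2* (30.0 FPKM), *Psmb10* (21.1), *Psmb9* (20.8), *Tap1* (18.1) and *Nlrc5* (2.52). There the ranges of *Psmb8* and *Tap2*, of *Psmb10* and *Psmb9*, and of *Psmb9* and *Tap1* overlapped.

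The rank of a gene by FPKM among the 10440 genes tested in a library does not depend on the scaling of that library. *B2m* was the 13th or 14th highest in Ctrl and between the 20th and 23rd in LIP, and *H2-D1* held places 21 to 23 and 23 to 24. *H2-K1* went from places 59 to 68 down to 103 to 117. *Psmb9* went from 2155 to 2368 up to 1593 to 1950, and *Psmb10* from 1064 to 1180 down to 1522 to 2237. *Tap2* lay at 1217 to 1248 and 1141 to 1501, without a shift beyond its spread.

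Among the 10 genes, the spread between libraries was widest for *Nlrc5* in Ctrl and for *Psmb10* in LIP. In Ctrl the coefficient of variation of CPM ran from 2.71% for *Tap2* to 16.7% for *Nlrc5*, and in LIP from 3.15% for *H2-D1* to 24.6% for *Psmb10*.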

How the data were processed

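The data were 6 Smart-seq2 libraries of sorted PB neutrophils, 3 Ctrl and 3 LIP, grouped by their labels. The deposited counts are whole, unnormalized numbers of reads assigned to a gene. The FPKM values, also computed by the authors, are scaled by gene length and library total. Per the labels, reads were trimmed with cutadapt 1.9, checked with FastQC and placed on GRCm38. The aligner, counting tool and strand setting are not given in the sources used here. Of the gene names, 50 occur more than once, none of them a gene named here.

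Counts were tested with edgeR 4.0.16 (R 4.3.3, quasi-likelihood test, TMM normalization, no replicate block) after a minimum of 1 on the mean FPKM over all libraries, with Benjamini-Hochberg adjustment over all 10440. The SE of a log2 fold change is its size divided by the square root of F. Ratios of FPKM were compared by two-sided exact permutation tests. The fit was also run on simulated counts with 200 genes changed 2-fold in random directions. That simulation held no shift as wide as the one between these groups, so it cannot show how TMM acts on them. Named genes are the 10 members, *Psmb5*, *Psmb6*, *Psmb7*, *Irf1*, *Rfx5* and 1 gene that is not reported here, up to 3 highest and 3 lowest of each related list (adjusted p under 0.05, mean FPKM of at least 10, no overlap between groups) and the most abundant marker of each cell type. Members and lists were chosen with earlier results of these data known. Promoter sequences and starts came from RefSeq (GRCm38.p6) and transcripts from GENCODE M21, where 8 of the 10 genes had the coordinates of the table and the ends of *Tapbp* and *Psmb10* differed. The alternatives were other normalizations, filters and tools (limma 3.58.1, DESeq2 1.42.0), pseudocounts of 1 and 0.1, a replicate block and the omission of each library in turn.

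Because each library is a pool of mice, p-values measure the spread between pools. Chi-square per gene between libraries of one group was 51.9 to 126, far above sampling noise. This is an average over genes, and PCR copies are counted as reads, so it does not give the counting error of a single gene.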

Additional observations from a re-analysis of the deposited data

How the results depend on the processing

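The 6 ratios kept their direction without each library. They also kept it with CPM in place of FPKM and with 1 added to each FPKM. Both of these alternatives leave a difference between groups nearly unchanged by construction, so they could hardly reverse a ratio. The exact tests of the ratios cannot reach 0.05 in any of these settings. Of the 10 log2 fold changes under the 10 alternatives that kept all libraries, 65 of 100 values kept both, 6 gained and 14 lost significance and 15 reversed; the cause was not tested. With library totals, *B2m* (0.062), *Tapbp* (0.018) and *Psmb9* (0.19) no longer passed, and *Tap1* (-0.35) and *Psmb8* (-0.43) passed. *Tap2* (-0.20) and *Nlrc5* (-0.24) reversed. This left 1 of the 10 genes higher and 4 lower, beside 18.4% and 39.7% of all genes tested. On the related lists, 11 of 18 cofactors and 8 of 11 shared 20S subunits were lower and 6 of 27 control genes higher, beside the same shares. In limma with pseudocounts of 1 and 0.1, *B2m* (0.0795 and 0.0795), *Tapbp* (0.0326 and 0.0329) and *Psmb9* (0.19 and 0.19) no longer passed. *Psmb8* (-0.41 and -0.42) passed, and *Tap2* (-0.19 and -0.20) and *Nlrc5* (-0.16 and -0.21) reversed. Under both, 1 of the 10 genes and 6 control genes were higher. Lower under both were 10 cofactors, 2 constitutive subunits and 8 shared 20S subunits. With a pseudocount of 1, 19.3% of all genes tested were higher and 40.7% lower. Scaled on mature neutrophil genes, *H2-D1* (-0.99), *B2m* (-1.42), *Tap2* (-1.69), *Tapbp* (-1.47), *Psmb9* (-1.30) and *Nlrc5* (-1.73) reversed, and *Tap1* (-1.84) and *Psmb8* (-1.91) passed. No gene of the 10 or of the related lists was higher (0 of each list), beside 0.546% of all genes tested. Lower were 10 of the 10, 13 relatives, 18 cofactors, 3 constitutive subunits, 11 shared 20S subunits and 27 control genes. Of all genes tested, 87.9% were lower under this scaling. With DESeq2 size factors and in DESeq2, *H2-K1* (-0.20 in both) no longer passed and *Tap1* (0.0071 in both) reversed, so 1 of the 10 genes was lower, and with the size factors 2 shared 20S subunits were lower. Without a filter, *H2-K1* (-0.20) and *Psmb10* (-0.50) no longer passed, and 0 of the 10 genes and 0 shared 20S subunits were lower. With filterByExpr, *Psmb10* (-0.49) no longer passed and *Tap1* (0.0075) reversed, and 1 of the 10 genes and 0 shared 20S subunits were lower. Both settings tested more genes, 29097 and 16402 beside 10440. Without hemoglobin and immunoglobulin genes, 4 of the 10 were higher and 2 lower. Shares of all genes are given only for TMM, library totals, neutrophil scaling and limma with a pseudocount of 1. Counts under the other settings, and with a library left out, have no such share beside them. They describe the calls and do not set these genes apart from the rest.

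With each library left out in turn, 3 to 4 of the 10 genes were higher and 0 to 2 lower (0 without the third LIP library), and 0 to 4 shared 20S subunits were lower. *H2-K1* ran from -0.26 to -0.19, *Tapbp* from 0.28 to 0.41 and *Psmb10* from -0.66 to -0.34, *Tap1* from -0.095 to 0.053 and *Nlrc5* from -0.049 to 0.19. The replicate block left 4 of the 10 genes higher and 2 lower, around a median of 0.10. Libraries of the same number had correlations of their deviations of 0.0212, 0.0562 and 0.0364. Each LIP library correlated most with the Ctrl library of its number. Other pairs ran from -0.0504 to 0.0217, the highest between the first Ctrl and the third LIP library. All these values are small, the labels give no pairing beyond the number, and a pairing was not tested. The depth of 52186555 reads or more left at least 1149 reads for each of the 10 genes. PCR copies are among these reads, so they do not give the number of molecules sampled.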
